A study of Homo sapiens with 12 samples.

Results

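The histone genes were measured by 91 of the 48800 probes of an expression array, under 79 of its 25158 gene symbols. They were chosen by name alone, as every probe whose symbol began with HIST1H, HIST2H, HIST3H, HIST4H, H1F, H2AF or H3F. Of these, 69 probes under 64 symbols belonged to the HIST genes, called replication-dependent here, and 22 probes under 15 symbols to the H1F, H2AF and H3F genes, called replacement genes here. Expression was profiled on 12 Illumina HumanHT-12 v3 arrays, 3 in each of 4 groups of cells labelled Reh, a leukemia cell line established from precursors of B cells. One group was untreated and had no stroma. A second received Ara-C (cytarabine, a nucleoside analogue that blocks DNA synthesis) for 48 h without stroma. The other groups received Ara-C for 48 h together with stromal cells, called HS in one and HS5 in the other. HS-5 is an immortalized stromal line of human bone marrow. What HS stands for and how much Ara-C was given are not stated in the labels. No group had stroma without Ara-C, so each effect of stroma is an effect in cells that also received Ara-C. The replicates are independent triplicates per the series' design text.

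DNA is wound around histone octamers made of H2A, H2B, H3 and H4, and the linker histone H1 sits on the DNA between them. The replication-dependent genes lie in clusters of near-identical copies and are transcribed mainly in S phase, to supply new nucleosomes. Their mRNAs end in a stem-loop that is bound by the stem-loop binding protein SLBP, in place of a poly(A) tail, and are degraded when DNA synthesis stops. Replacement histones such as H3.3, H2A.Z and H1.0 come from genes that lie singly elsewhere in the genome. These genes are transcribed outside S phase too, and their mRNAs carry poly(A) tails. The labelling kit used here primes with oligo(dT), so a replication-dependent probe reads mainly those transcripts of its gene that were polyadenylated. A change at such a probe therefore cannot be assigned to the stem-loop mRNA of that gene. The probes' sequences were not used here, so binding of related copies to one probe was not tested, and each probe is reported under the symbol the scanner tables give it.

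On these arrays, 13064 to 14898 probes per array were detected, meaning that their detection p against the negative controls was under 0.01. Probes detected on at least 3 arrays were kept, 14939 in all. Levels are log2 of background-corrected, quantile-normalized intensities. Arrays of 1 group correlated at r = 0.991 to 0.993 across kept probes, and arrays of different groups at 0.945 to 0.991. All arrays lay on 1 chip and the groups followed one another along it, so that chip position cannot be told apart from group. As a check of the labelled cell type, 10 of 15 markers of B-lineage precursors were tested, while CD22, PAX5, VPREB1 and BLNK were detected on no array. Markers of granulocyte precursors were also present, with 9 of 11 tested and their linear intensities summing to between 55900 and 62200 on the untreated arrays, so the cells are called by their label only.

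Most replication-dependent genes were not detected by this assay. In total 16 of their 69 probes were kept (23.2%), for 13 genes, against 14 of the 22 replacement probes (63.6%), for 9 genes, and 30.6% of all probes. Together these 30 probes of 22 genes are the members that could be tested. Of the replication-dependent probes, 46 were detected on no array and 9 on all 12, and of the replacement probes, 7 on none and 12 on all. The 61 histone probes that were not kept gave 732 readings, of which 10 had a detection p under 0.01, beside the 7.32 that this threshold alone would give. Probes detected on at least 3 arrays had been set apart, so the filter itself held this count low and it shows no absence of these transcripts. By family, the kept replication-dependent probes comprised 1 of 6 for the linker histone H1, 4 of 17 for H2A, 7 of 21 for H2B and 4 of 14 for H4. None of the 11 replication-dependent probes for H3 was kept. Levels of different probes are not compared below, since a probe's brightness also depends on its sequence.

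The promoters of 4 of the genes described below are shown because their transcripts were all lower with HS than with Ara-C alone and they differ in the elements they hold. HIST1H2BK codes for an H2B, HIST1H2AC for an H2A, HIST1H1C for the linker histone H1.2 and H2AFZ for the replacement histone H2A.Z. The sequences are those of RefSeq on GRCh38.p14, from 250 bases before to 50 bases after the annotated start of each gene, written 5′ to 3′ on the strand of the gene. Capitals mark 3 elements, each searched for on both strands. One is TATAAA, where the basal machinery binds. Another is the CCAAT box. The last is the octamer ATTTGCAT, bound by OCT1 and known from H2B promoters. The HIST1H2BK window (chr6:27146809-27147108, minus strand, current symbol H2BC12) held 3 TATAAA, 6 CCAAT and 1 octamer, and 2 of the TATAAA matches overlap on opposite strands. The HIST1H2AC window (chr6:26123922-26124221, plus strand, current symbol H2AC6) held 1, 3 and 1. HIST1H1C (chr6:26056421-26056720, minus strand, current symbol H1-2) held only 1 CCAAT of these elements. H2AFZ (chr4:99950226-99950525, minus strand, current symbol H2AZ1) held 1 TATAAA and 3 CCAAT.
HIST1H2BK: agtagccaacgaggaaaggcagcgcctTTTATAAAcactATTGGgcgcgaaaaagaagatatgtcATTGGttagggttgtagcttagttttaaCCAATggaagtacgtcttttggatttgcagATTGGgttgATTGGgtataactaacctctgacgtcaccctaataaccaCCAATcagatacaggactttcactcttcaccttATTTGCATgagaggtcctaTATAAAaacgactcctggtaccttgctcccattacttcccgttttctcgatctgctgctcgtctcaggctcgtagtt
HIST1H2AC: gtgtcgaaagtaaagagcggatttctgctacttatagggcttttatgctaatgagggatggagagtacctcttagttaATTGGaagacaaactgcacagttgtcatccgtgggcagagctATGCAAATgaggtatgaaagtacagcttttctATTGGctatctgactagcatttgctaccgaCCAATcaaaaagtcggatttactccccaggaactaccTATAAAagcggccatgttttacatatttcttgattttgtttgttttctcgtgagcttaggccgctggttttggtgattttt
HIST1H1C: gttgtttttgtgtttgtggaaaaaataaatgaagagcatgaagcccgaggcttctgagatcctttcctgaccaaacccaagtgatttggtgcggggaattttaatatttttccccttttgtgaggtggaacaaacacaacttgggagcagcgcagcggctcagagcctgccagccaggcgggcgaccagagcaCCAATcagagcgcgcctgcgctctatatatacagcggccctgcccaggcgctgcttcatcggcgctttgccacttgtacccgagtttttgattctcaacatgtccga
H2AFZ: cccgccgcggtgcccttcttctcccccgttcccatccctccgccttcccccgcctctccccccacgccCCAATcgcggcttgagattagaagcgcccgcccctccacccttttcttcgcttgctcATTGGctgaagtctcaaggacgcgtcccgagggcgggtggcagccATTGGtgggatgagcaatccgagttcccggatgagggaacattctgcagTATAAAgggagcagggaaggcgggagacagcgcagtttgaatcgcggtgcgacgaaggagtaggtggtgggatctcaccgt

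RefSeq entries matched 74 of the 79 symbols to 1 gene each, and 68 of them had a promoter in the table, among them 20 of the 22 genes with a kept probe. The octamer letters ATTTGCAT were in 20 of the 54 replication-dependent promoters (37%), in 1 of the 14 replacement promoters (7.14%) and in 1.8% of all 27305 promoters of this length. TATAAA was in 36 of the 54 (66.7%), in 4 of the 14 (28.6%) and in 12% of all promoters. CCAAT was common in both classes, at 83.3% and 78.6%, against 35.7% of all promoters. Among the promoters of genes with a kept probe, the octamer was in 6 of 12 replication-dependent and 1 of 8 replacement genes. These counts describe letters in a window and show no binding. Different motifs did not overlap each other in these windows.

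The first comparison asked which histone transcripts differed between cells treated with Ara-C and untreated cells. Among the 16 replication-dependent probes, 3 fell (HIST1H2BH, HIST1H4K and HIST1H4C), 2 rose (HIST1H4B and 1 of the HIST1H2BK probes) and 11 did not pass the test. Among the 14 replacement probes, 5 rose and 4 fell. HIST1H2BH and H2AFJ ILMN_2253065 were kept only through their untreated arrays, so their falls in these counts were partly set by the filter. A probe was called when its adjusted p in limma was under 0.05, with Benjamini-Hochberg adjustment over all kept probes. In this comparison 49.9% of all kept probes were called, 23.7% higher and 26.2% lower, so the 14 of 30 histone probes called (46.7%) were near the background. With median scaling in place of quantile normalization, 5102 of all probes were higher and 1680 lower in place of 3535 and 3919, and 5 replication-dependent probes rose and 3 fell, while 7 replacement probes rose and 3 fell. The median log2 difference was -0.12 over the replication-dependent probes and 0.11 over the replacement probes, beside -0.05 over all probes. The arrays of the groups did not overlap for 9 of the 16 and 11 of the 14 probes, where 58.5% of all probes did not overlap.

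HIST1H4C, one of the gene copies for histone H4, was at log2 intensities of 14.60, 14.59 and 14.64 on the untreated arrays. It was at 13.66, 13.78 and 13.67 with Ara-C, at 14.27, 14.002 and 14.17 with Ara-C and HS, and at 13.58, 13.65 and 13.72 with Ara-C and HS5. No Ara-C array came near the untreated ones, the HS arrays lay between those groups without overlapping either, and the HS5 arrays overlapped the Ara-C arrays. It fell 1.87-fold with Ara-C (log2 difference -0.90, SE 0.09, adjusted p = 4.91e-06) and rose 1.36-fold when HS was added (log2 difference 0.44, SE 0.09, adjusted p = 0.00222). HIST1H4C was the only replication-dependent probe called higher with HS than with Ara-C alone.

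Another H4 copy, HIST1H4K, was at 6.88, 6.83 and 7.11 on the untreated arrays and at 6.18, 5.84 and 5.54 with Ara-C, where it was detected on 2 of 3 arrays. With HS it was at 4.995, 5.01 and 5.21, detected on none, and with HS5 at 5.73, 5.91 and 5.66, detected on 2. HIST1H4K was highest on the untreated arrays, lowest with HS, and overlapped between Ara-C and HS5. It fell 2.12-fold with Ara-C (log2 difference -1.09, SE 0.15, adjusted p = 5.55e-05). Compared with Ara-C alone, HIST1H4K was lower with HS by at least 1.19-fold (adjusted p = 0.00112). Here and below "at least" is the fold against the lowest level at which a probe was detected on each array, between 5.41 and 5.94 on the log2 scale.

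HIST1H2BH, an H2B copy, was at 6.54, 7.12 and 6.51 in untreated cells and was detected on none of the Ara-C arrays, at 5.28, 5.13 and 5.45. It was at 6.02, 5.26 and 5.01 with HS, detected on 1 array, and at 4.97, 5.43 and 5.59 with HS5, detected on none. The untreated arrays thus stood above those of the other groups, which overlapped one another. The fall of HIST1H2BH with Ara-C was at least 2.09-fold (fitted log2 difference -1.44, SE 0.24, adjusted p = 0.000321). Its detection on the other arrays was too rare for the filter, which kept it only through the untreated arrays. Its lower level than in untreated cells, here and below, was therefore partly set by the filter.

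HIST1H4B, also an H4 copy, showed the opposite order. It was detected on no untreated array (4.76, 5.25 and 5.40) and on all Ara-C arrays (6.03, 6.03 and 5.92). With HS it was again detected on none (5.26, 4.83 and 5.002), and with HS5 on all (6.27, 5.78 and 6.04). HIST1H4B rose at least 1.17-fold with Ara-C (adjusted p = 0.000982) and fell at least 1.32-fold when HS was added (adjusted p = 0.000696). The remaining H4 probe, HIST2H4A, was at 5.58, 5.55 and 5.45, detected on no untreated array, and at 6.14, 5.72 and 5.76 with Ara-C, detected on 2. Its difference between these groups did not pass the test (adjusted p = 0.152). HIST2H4A was called higher with median scaling (log2 difference 0.59, adjusted p = 0.0177) and in a limma fit of those groups alone (adjusted p = 0.0483). The 4 H4 probes therefore differed in direction with Ara-C, with 2 that fell, 1 that rose and 1 that was not called in the model used throughout.

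**Figure D1:**
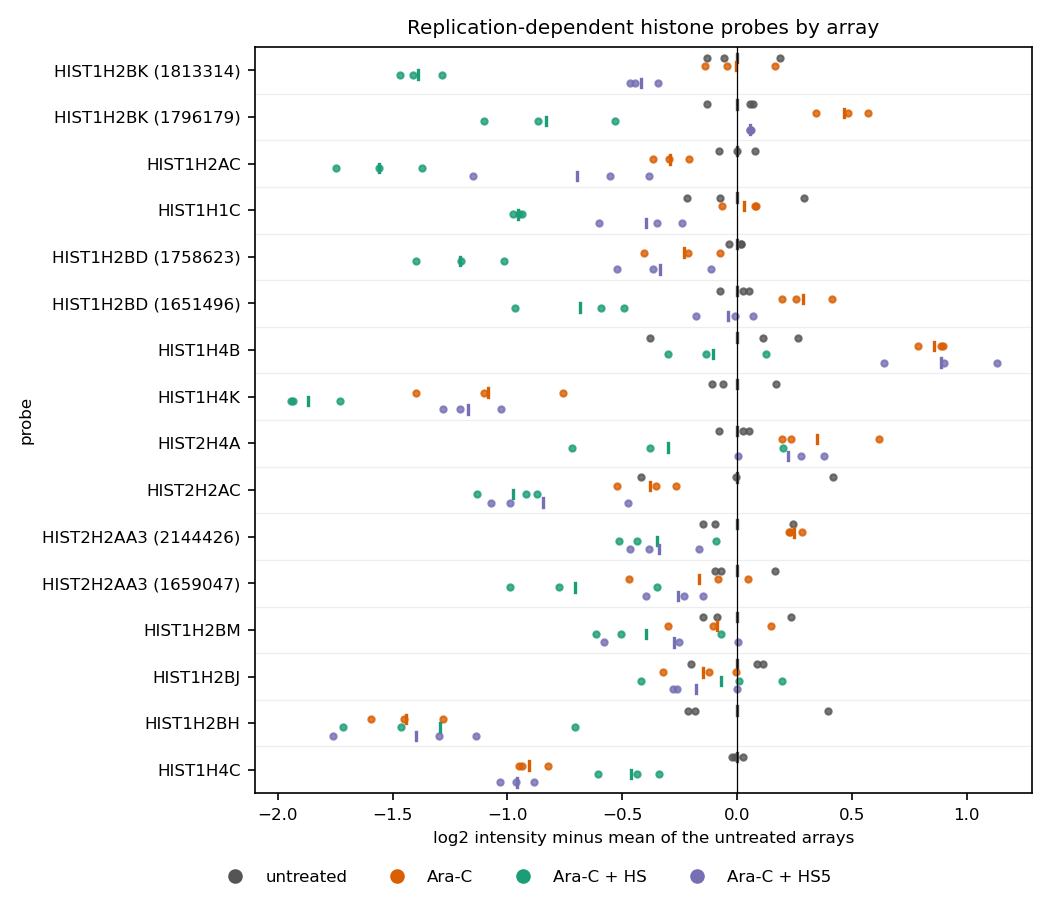
Log2 intensity of each kept replication-dependent probe on each of the 12 arrays (points), minus the mean of the 3 untreated arrays, with a tick at each group mean. HIST1H2BK, HIST1H2AC, HIST1H2BD and HIST1H1C probes sat lowest on the HS arrays, while HIST1H4C and HIST1H2BH were below the untreated arrays with Ara-C alone.

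HIST1H2BK had 2 kept probes. ILMN_1796179 was at 11.19, 11.37 and 11.38 in untreated cells, at 11.80, 11.66 and 11.88 with Ara-C, at 10.45, 10.78 and 10.21 with HS and at 11.37 on all 3 HS5 arrays. The Ara-C arrays were the highest and the HS arrays the lowest, with no overlap between these groups and the untreated arrays, which the HS5 values fell among. ILMN_1796179 rose 1.38-fold with Ara-C (log2 difference 0.47, SE 0.13, adjusted p = 0.00901). The other probe, ILMN_1813314, was at 8.06, 7.82 and 7.75 in untreated cells and at 7.83, 8.04 and 7.74 with Ara-C, a log2 difference of -0.01 (SE 0.11, adjusted p = 0.973), so the probes of HIST1H2BK differed in their call for Ara-C.

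Among the replacement genes the linker histones fell with Ara-C. H1F0, which codes for H1.0, a linker histone of slowly dividing and differentiated cells, was at 7.08, 7.28 and 7.02 in untreated cells and at 5.77, 6.05 and 6.05 with Ara-C. It was at 7.14, 6.61 and 7.30 with HS, overlapping the untreated arrays, and at 5.79, 5.86 and 5.46 with HS5, overlapping the Ara-C arrays. H1F0 fell 2.25-fold with Ara-C (log2 difference -1.17, SE 0.17, adjusted p = 8.88e-05) and rose 2.08-fold when HS was added (log2 difference 1.06, SE 0.17, adjusted p = 0.000338). H1FX, which codes for the linker variant H1X, was at 8.98, 8.76 and 8.91 in untreated cells, at 8.18, 8.22 and 8.09 with Ara-C, at 8.47, 8.18 and 8.49 with HS and at 8.21, 8.32 and 8.05 with HS5. All 9 arrays with Ara-C lay below the untreated ones, and the HS arrays overlapped the Ara-C arrays. H1FX fell 1.65-fold with Ara-C (log2 difference -0.72, SE 0.11, adjusted p = 0.000149), and its difference with HS did not pass the test (0.22, SE 0.11, adjusted p = 0.138, and 0.0446 without HS array 2).

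H2AFZ rose with Ara-C. It codes for H2A.Z, which replaces H2A at promoters and elsewhere. Its log2 intensity was 14.002, 14.15 and 14.04 in untreated cells, 14.57, 14.45 and 14.46 with Ara-C, 13.997, 13.77 and 13.90 with HS and 14.68, 14.62 and 14.69 with HS5. The arrays with Ara-C alone and with HS5 all lay above the untreated and HS arrays. The rise of H2AFZ with Ara-C was 1.35-fold (log2 difference 0.43, SE 0.09, adjusted p = 0.0015).

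Histone H3.3 is encoded by H3F3A and H3F3B, which gave opposite calls. Of the 3 H3F3A probes, ILMN_1656082 was at 14.20, 14.29 and 14.36 in untreated cells, at 14.75, 14.49 and 14.91 with Ara-C, at 14.07, 14.12 and 14.22 with HS and at 14.57, 14.66 and 14.60 with HS5. ILMN_1699015 was at 13.26, 13.11 and 13.30, then 13.56, 13.62 and 13.50, then 13.16, 13.23 and 13.18, then 13.57, 13.55 and 13.54 in the same order of groups. ILMN_2106331 was at 13.80, 13.74 and 13.84, then 14.10, 14.02 and 14.14, then 13.61, 13.77 and 13.52, then 14.07, 13.74 and 14.03. For each of these H3F3A probes, all Ara-C arrays lay above all untreated and all HS arrays. They rose with Ara-C by log2 differences of 0.43 (SE 0.11, adjusted p = 0.00478), 0.34 (SE 0.08, adjusted p = 0.005) and 0.29 (SE 0.11, adjusted p = 0.0345). The call of ILMN_2106331 was lost when untreated array 1, 2 or 3 or Ara-C array 1 or 3 was left out (adjusted p = 0.0553 to 0.0959). H3F3B was at 10.16, 9.93 and 10.003 in untreated cells, at 9.55, 9.55 and 9.58 with Ara-C, at 9.64, 9.31 and 9.68 with HS and at 9.35, 9.50 and 9.54 with HS5, so every array with Ara-C lay below the untreated ones. It fell with Ara-C by 0.47 on the log2 scale (SE 0.11, adjusted p = 0.00352), a call that median scaling without quantile normalization removed (-0.27, adjusted p = 0.16). Processed copies of H3F3A exist in the genome and may share its probes, so its values are uncertain in that respect.

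H2AFJ codes for H2A.J and had 2 kept probes, which were called in opposite directions where HS was compared with Ara-C alone or with HS5. ILMN_2253065 was at 6.48, 6.05 and 6.16 in untreated cells, at 4.89, 4.94 and 5.08 with Ara-C (detected on none), at 5.28, 5.92 and 5.84 with HS (detected on 2) and at 5.21, 5.26 and 5.13 with HS5 (detected on none). It fell at least 1.48-fold with Ara-C (adjusted p = 2.87e-05) and rose at least 1.01-fold with HS (adjusted p = 0.00346). The filter kept ILMN_2253065 only through its untreated arrays, so its fall from them was partly set by the filter. ILMN_1708728 was at 6.97, 6.99 and 7.01 in untreated cells, at 7.23, 6.98 and 7.32 with Ara-C, at 6.05, 6.57 and 6.45 with HS and at 7.26, 6.84 and 7.09 with HS5. This H2AFJ probe overlapped between untreated and Ara-C arrays (log2 difference 0.18, SE 0.15, adjusted p = 0.313) and fell 1.77-fold with HS (log2 difference -0.82, SE 0.15, adjusted p = 0.00071). Its HS arrays lay below those of the other groups. Against untreated cells both H2AFJ probes were called lower with HS. The falls were 0.55 (ILMN_2253065, SE 0.16, adjusted p = 0.0132) and 0.64 (ILMN_1708728, SE 0.15, adjusted p = 0.00356) on the log2 scale.

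H2AFY codes for macroH2A1, a variant with a large extra domain that is known from silent chromatin, and 1 of its 3 probes was called with Ara-C in the model used throughout. ILMN_1674034 was at 9.46, 9.73 and 9.68 in untreated cells, at 10.19, 10.22 and 10.05 with Ara-C, at 10.02, 10.24 and 9.98 with HS and at 10.13, 9.44 and 9.90 with HS5. It rose with Ara-C by a log2 difference of 0.53 (SE 0.15, adjusted p = 0.0108), and the HS5 arrays overlapped those of the other groups. ILMN_1746171 had a log2 difference of -0.31 with Ara-C (SE 0.13, adjusted p = 0.0664), which was called lower in other settings, such as without background correction (adjusted p = 0.0312), with trend and robust settings (0.0152) and without HS array 1 (0.0269). ILMN_2373495 had a log2 difference of -0.15 (SE 0.11, adjusted p = 0.267). H2AFX, the variant phosphorylated at DNA breaks, lay between 7.30 and 7.63 in untreated cells and between 7.55 and 7.59 with Ara-C, and was called in none of the 6 comparisons. H2AFV, for a second H2A.Z protein, was also called in none.

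**Figure D2:**
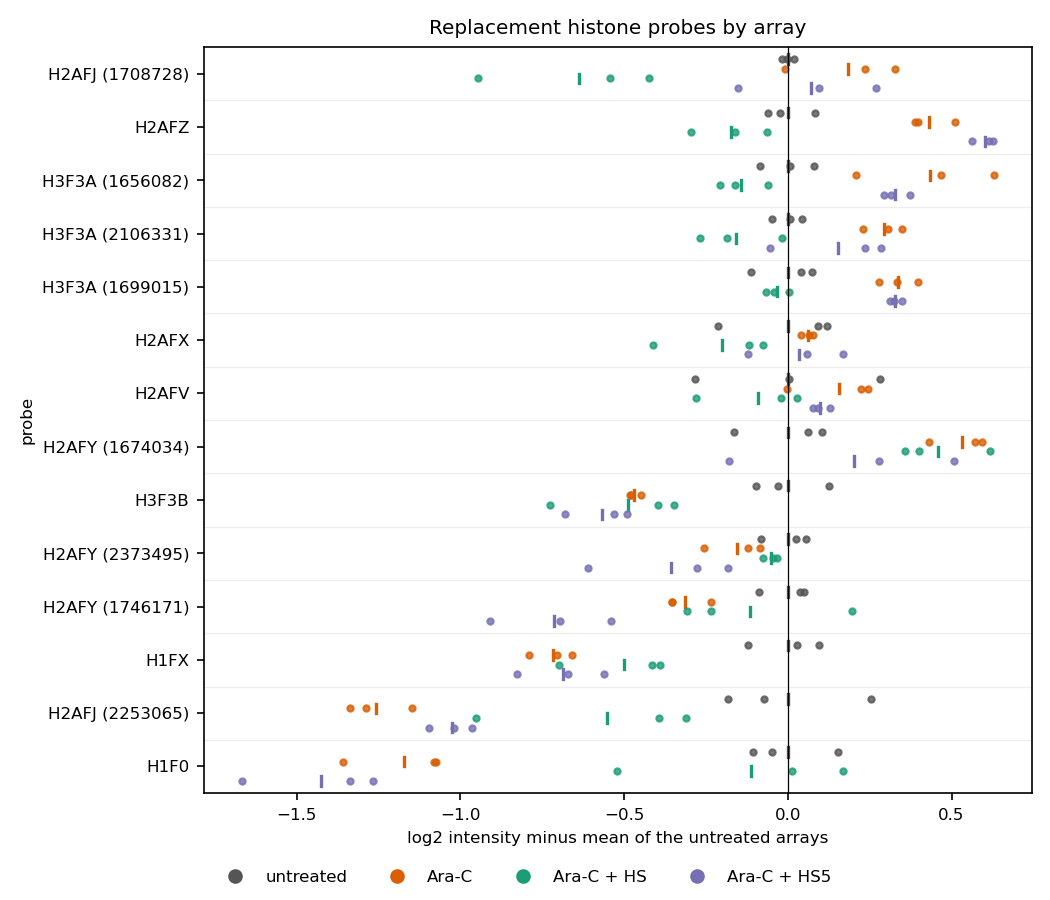
Log2 intensity of each kept replacement histone probe on each of the 12 arrays (points), minus the mean of the 3 untreated arrays, with a tick at each group mean. H1F0 and H2AFJ ILMN_2253065 were below 0 with Ara-C and with HS5, and H2AFJ ILMN_2253065 was below 0 with HS too. H2AFZ and the H3F3A probes had group means above 0 with Ara-C and with HS5. Their means with HS were below 0, but none of these was called against untreated cells.

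The second comparison asked how the transcripts differed when HS was present with Ara-C. Here 12 of the 16 replication-dependent probes fell, 1 rose and 3 did not pass the test, while of the 14 replacement probes 5 fell, 2 rose and 7 did not pass. In all, 39.1% of kept probes were called, 19.9% higher and 19.2% lower. The replication-dependent probes were thus called lower in 75% of cases and the replacement probes in 35.7%, and the difference between the classes was not tested. With median scaling 2001 of all probes were higher and 3006 lower in place of 2971 and 2866, and the counts of both histone classes stayed as given. The median log2 difference was -0.72 over the replication-dependent probes (-0.59 with undetected groups at their bounds), -0.16 over the replacement probes and 0.01 over all probes. The arrays of the groups did not overlap for 11 of the 16 and 9 of the 14 probes, beside 50.4% of all probes. This comparison shares the Ara-C arrays with the first one and with that of HS5, so each is given by its own values.

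The largest log2 difference was that of HIST1H2BK ILMN_1813314, which was at 6.59, 6.41 and 6.46 with HS against 7.83, 8.04 and 7.74 with Ara-C alone. It fell 2.61-fold (log2 difference -1.38, SE 0.11, adjusted p = 1.36e-06). Its values with HS were also below all untreated arrays, and with HS5 they were 7.41, 7.43 and 7.53, between the HS and the Ara-C arrays. The other HIST1H2BK probe, ILMN_1796179, fell 2.46-fold (log2 difference -1.30, SE 0.13, adjusted p = 8.47e-06), so both probes of this gene were called in the same direction.

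HIST1H2AC, an H2A copy, was at 6.79, 6.63 and 6.71 in untreated cells and at 6.35, 6.50 and 6.42 with Ara-C. With HS it was at 5.34, 5.15 and 4.97 and detected on no array, and with HS5 at 6.16, 5.56 and 6.33, detected on 2. No HS array reached any array of the other groups. HIST1H2AC fell at least 1.77-fold with HS (fitted log2 difference -1.27, SE 0.17, adjusted p = 7.34e-05). Between Ara-C and untreated cells its log2 difference was -0.29 (adjusted p = 0.162, and 0.0454 without HS5 array 2).

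HIST1H1C, for the linker histone H1.2, was at 7.15, 7.52 and 7.01 in untreated cells, at 7.31, 7.16 and 7.31 with Ara-C, at 6.29, 6.25 and 6.28 with HS and at 6.88, 6.63 and 6.99 with HS5. The HS arrays were the lowest, the HS5 arrays lay below those with Ara-C alone, and the untreated arrays overlapped those with Ara-C alone. It fell 1.98-fold with HS (log2 difference -0.99, SE 0.13, adjusted p = 8.03e-05). The direction was opposite to that of H1F0, the replacement linker histone, which rose with HS.

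HIST1H2BD, an H2B copy, had 2 kept probes. ILMN_1651496 was at 7.58, 7.61 and 7.48 in untreated cells, at 7.82, 7.75 and 7.97 with Ara-C, at 7.07, 6.97 and 6.59 with HS and at 7.38, 7.55 and 7.63 with HS5. ILMN_1758623 was at 6.69, 6.69 and 6.64, then 6.46, 6.26 and 6.60, then 5.66, 5.27 and 5.47, then 6.31, 6.15 and 6.56, and with HS it was detected on 1 array. On both HIST1H2BD probes the HS arrays were the lowest without overlap. Each fell 1.96-fold with HS, with log2 differences of -0.97 (SE 0.12, adjusted p = 6.48e-05) and -0.97 (SE 0.13, adjusted p = 8.53e-05). For Ara-C against untreated cells their signs differed, at 0.29 (adjusted p = 0.0709, and 0.0298 without HS array 3) and -0.23 (adjusted p = 0.156).

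HIST2H2AC, an H2A copy in the histone cluster on chromosome 1, was at 7.61, 6.77 and 7.18 in untreated cells, at 6.92, 6.83 and 6.66 with Ara-C, at 6.31, 6.26 and 6.05 with HS and at 6.20, 6.11 and 6.71 with HS5. It fell with HS by 0.59 on the log2 scale (SE 0.20, adjusted p = 0.0283), a call lost without Ara-C array 1 or 2 or HS array 2 or 3 (adjusted p = 0.0526 to 0.0957). HIST2H2AC had a log2 difference of -0.38 with Ara-C (adjusted p = 0.124, and 0.0204 without untreated array 2, the lowest of its group). HIST2H4A was at 5.14, 5.72 and 4.81 with HS, detected on 1 array, and at 5.53, 5.80 and 5.90 with HS5, detected on 1, against 6.14, 5.72 and 5.76 with Ara-C. It fell with HS by 0.65 on the log2 scale (SE 0.19, adjusted p = 0.018), although an HS array overlapped the Ara-C arrays. That call was lost without Ara-C array 1 or HS array 1 or 3 (adjusted p = 0.0537 to 0.082). HIST2H4A was kept only through its Ara-C arrays, so its fall from them, counted above, was partly set by the filter.

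HIST2H2AA3, an H2A gene with a near-identical neighbour copy, had 2 kept probes that were called lower with HS. The log2 differences were -0.54 for ILMN_1659047 (SE 0.17, adjusted p = 0.0217) and -0.59 for ILMN_2144426 (SE 0.13, adjusted p = 0.00373). The HIST2H2AA3 call at ILMN_1659047, whose groups overlapped, was lost without Ara-C array 1 or 2 or HS array 2 or 3 (adjusted p = 0.0634 to 0.0968). HIST1H2BJ, an H2B copy, lay between 8.98 and 9.29 in untreated cells, 8.85 and 9.17 with Ara-C, 8.76 and 9.37 with HS and 8.90 and 9.18 with HS5, so that the groups overlapped throughout. HIST1H2BM lay between 5.20 and 6.05 and was detected on 1 or 2 arrays of each group. Neither HIST1H2BJ nor HIST1H2BM was called in any of the 6 comparisons.

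**Figure D3:**
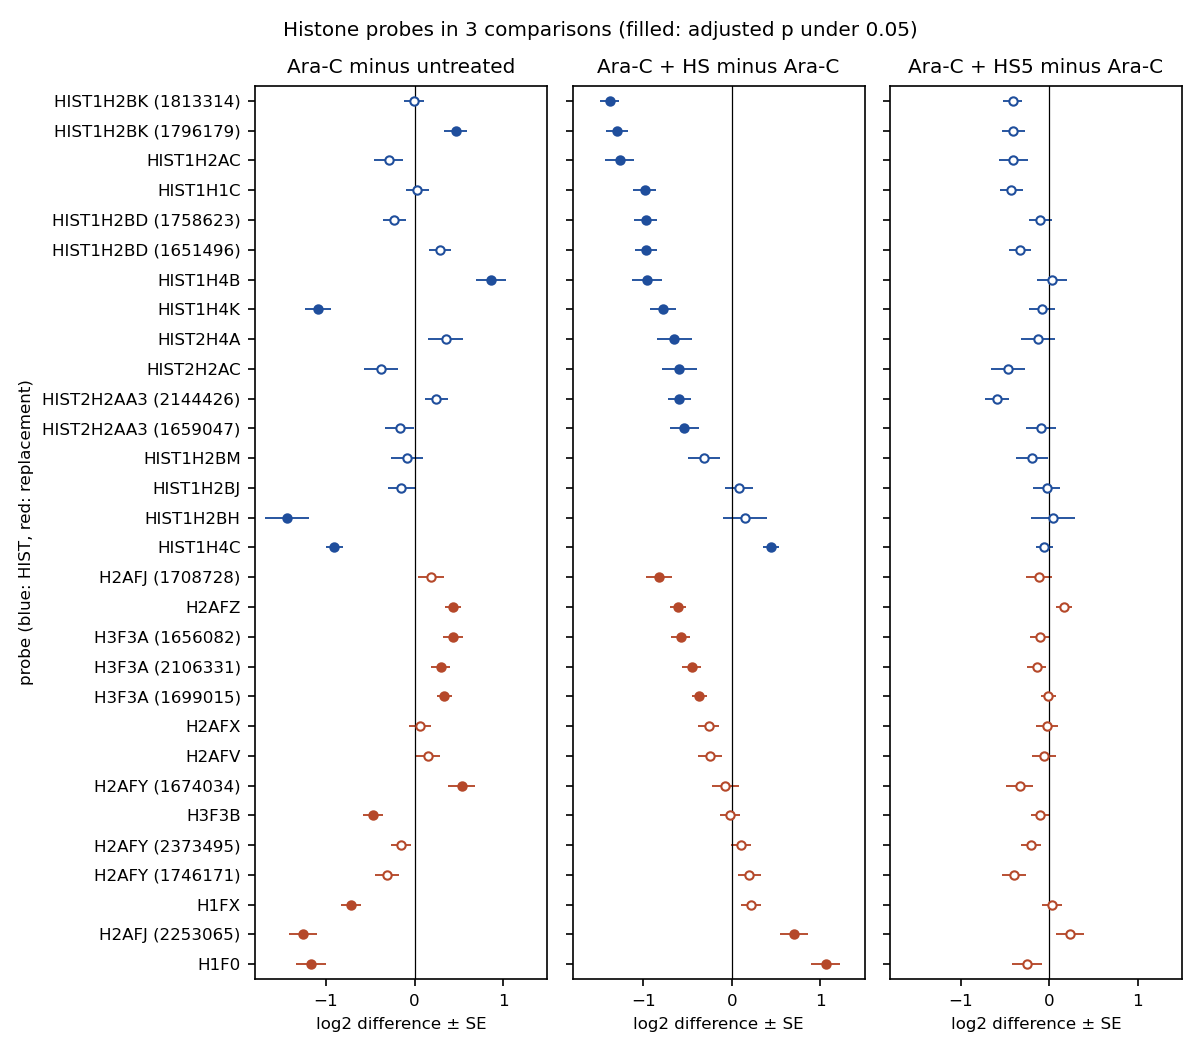
Log2 difference with its standard error (bars) for each of the 30 kept histone probes in 3 comparisons, with replication-dependent probes in blue, replacement probes in red and filled points where the adjusted p was under 0.05. With HS, 12 of the 16 blue points are filled and negative, and with HS5 no point is filled.

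Of the replacement probes called higher with Ara-C, those of H2AFZ and H3F3A were called lower when HS was added, and H2AFY ILMN_1674034 was not called. Both comparisons use the same Ara-C arrays, so a probe picked as high on them leans towards a fall. H2AFZ fell 1.52-fold (log2 difference -0.61, SE 0.09, adjusted p = 0.000202). The H3F3A probes fell by 0.58 (ILMN_1656082, adjusted p = 0.00109), 0.37 (ILMN_1699015, adjusted p = 0.00387) and 0.45 (ILMN_2106331, adjusted p = 0.00469) on the log2 scale. H2AFY ILMN_1674034 had a log2 difference of -0.07 (adjusted p = 0.73), and H3F3B one of -0.02 (SE 0.11, adjusted p = 0.9). Against untreated cells, the HS arrays differed at H2AFZ by -0.17 (95% interval -0.37 to 0.02) and at H1F0 by -0.11 (95% interval -0.48 to 0.25), and neither difference passed the test.

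**Figure D4:**
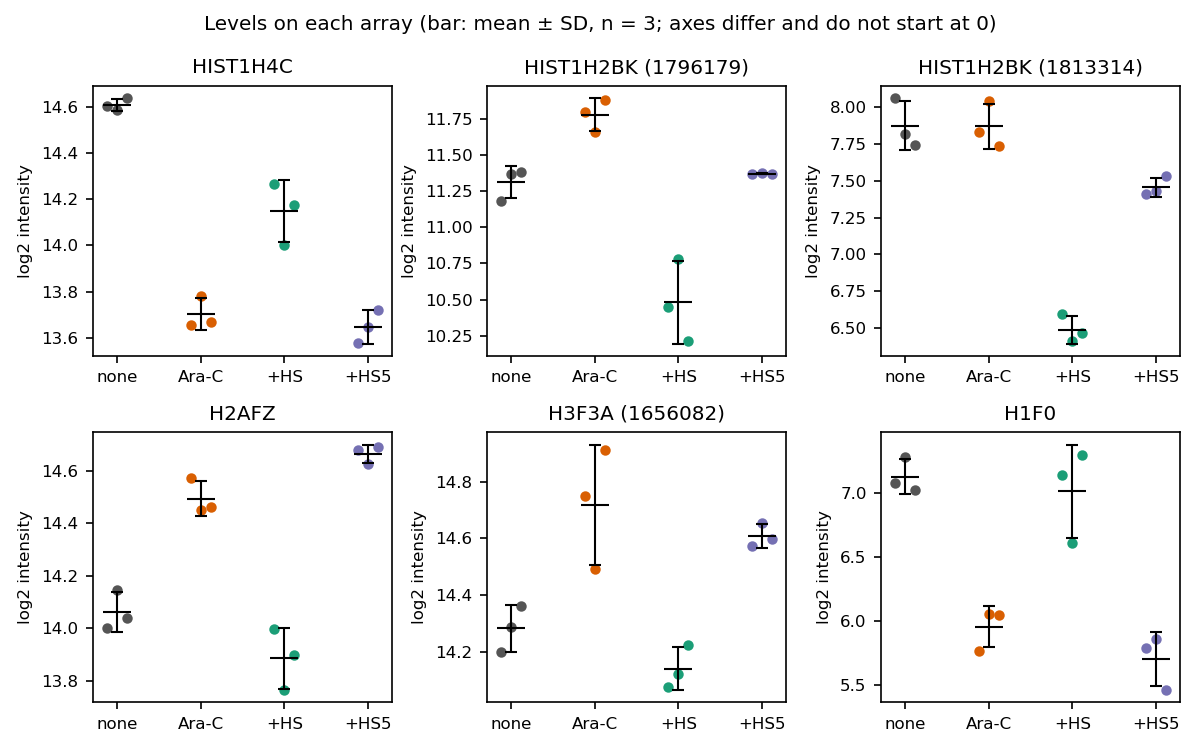
Log2 intensity of 6 histone probes (HIST1H4C, the pair for HIST1H2BK, H2AFZ, H3F3A ILMN_1656082 and H1F0) on each array (points) by group, with the group mean and SD (n = 3) as bars on axes that do not start at 0. HIST1H4C and H1F0 were lower with Ara-C and with Ara-C plus HS5 than with HS, and the HIST1H2BK, H2AFZ and H3F3A probes were lowest with HS.

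The third comparison asked the same of HS5. None of the 30 histone probes was called between Ara-C with HS5 and Ara-C alone, where 0.723% of all kept probes were called (108 probes) in limma, 0.455% higher and 0.268% lower. At an unadjusted p under 0.05 there were 7 of the 16 replication-dependent probes (43.8%) and 2 of the 14 replacement probes (14.3%), beside 12.7% of all probes. The other settings tried in limma called 0 to 3 of these histone probes. The replication-dependent differences ran from -0.59 to 0.04 on the log2 scale with a median of -0.16, and 14 of the 16 were below 0. For the replacement probes the range was -0.40 to 0.23, the median -0.10, and 11 of 14 were below 0. Over all probes the median was -0.01, and 7676 of 14939 were below 0. With median scaling in place of quantile normalization the median of all probes was -0.11 here, with 38 higher and 61 lower in place of 68 and 40. Groups did not overlap for 6 of the 16 and 4 of the 14 probes, where 18.9% of all probes did not.

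HIST2H2AA3 ILMN_2144426 had the largest log2 difference with HS5, -0.59 (SE 0.13, adjusted p = 0.0734), with the arrays of the groups apart. Next were HIST2H2AC at -0.47 (SE 0.20, adjusted p = 0.341) and HIST1H1C at -0.43 (SE 0.13, adjusted p = 0.178). HIST1H2BK ILMN_1813314 differed by -0.41 (95% interval -0.65 to -0.17, adjusted p = 0.123) and ILMN_1796179 by -0.41 (95% interval -0.69 to -0.13, adjusted p = 0.192). These probes were lower on every HS5 array than on every Ara-C array, except HIST2H2AC, whose groups overlapped. HIST1H4C differed by only -0.05 (95% interval -0.26 to 0.15) and H1F0 by -0.25 (95% interval -0.62 to 0.11). With trend and robust settings in limma, HIST2H2AA3 ILMN_2144426 (adjusted p = 0.0287), HIST1H2BK ILMN_1796179 (adjusted p = 0.0267) and H2AFY ILMN_1746171 (adjusted p = 0.0429) were called lower.

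The HS5 and HS groups were compared directly. Of the replication-dependent probes 10 were higher with HS5, 1 was lower and 5 did not pass (8 higher and 1 lower with median scaling). Of the replacement probes 5 were higher and 4 lower (3 and 4 with median scaling). In this comparison 40.8% of all probes were called, 19.9% higher and 21% lower. The median log2 difference was 0.54 over the replication-dependent probes (0.43 with undetected groups at their bounds), 0.06 over the replacement probes and -0.01 over all. Groups did not overlap for 9 of the 16 and 9 of the 14 probes, beside 49.8% of all probes. HIST1H2BK ILMN_1813314 was 1.96-fold higher with HS5 (log2 difference 0.97, SE 0.11, adjusted p = 2.17e-05), HIST1H2BD ILMN_1758623 1.83-fold higher (adjusted p = 0.000176) and HIST1H4B at least 1.35-fold higher (adjusted p = 0.000491). H1F0 was 2.48-fold lower with HS5 (log2 difference -1.31, SE 0.17, adjusted p = 5.74e-05) and HIST1H4C 1.41-fold lower (log2 difference -0.50, SE 0.09, adjusted p = 0.000915).

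Against untreated cells, all 16 replication-dependent probes, for 13 genes, had negative log2 differences in the HS group, as did 7913 of all 14939 probes. Of the 16, 11 fell, none rose and 5 did not pass. Of the replacement probes 4 fell and 1 rose. Across all probes 42.8% were called, 20.8% higher and 22% lower. With median scaling, 4062 of all probes were higher and 1417 lower in place of 3112 and 3285. In that setting 10 replication-dependent probes fell, and 1 replacement probe fell and 1 rose, with H1FX, H3F3B and H2AFJ ILMN_2253065 no longer called. The medians were -0.77 for the replication-dependent probes, -0.15 for the replacement probes and -0.03 for all. Groups did not overlap for 11 of the 16 and 6 of the 14 probes, beside 52.4% of all probes. The fall of HIST1H4K was at least 2.54-fold (adjusted p = 9.97e-07), that of HIST1H2AC at least 2.17-fold (adjusted p = 1.21e-05) and that of HIST1H2BK ILMN_1813314 2.62-fold (log2 difference -1.39, SE 0.11, adjusted p = 1.07e-06). HIST1H2BH, detected on 1 of 3 HS arrays, was also called lower (fitted log2 difference -1.29, SE 0.24, adjusted p = 0.00104). HIST1H4C, despite its rise between Ara-C alone and HS, remained 1.38-fold lower than in untreated cells (log2 difference -0.46, SE 0.09, adjusted p = 0.00161).

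In the HS5 group against untreated cells, 9 replication-dependent probes fell, 1 rose and 6 did not pass, and of the replacement probes 6 fell and 3 rose. Here 54.2% of all probes were called, 25.5% higher and 28.7% lower, and groups did not overlap for 11 of the 16 and 9 of the 14 probes, beside 61.3% of all. With median scaling, 4407 of all probes were higher and 2793 lower in place of 3811 and 4283. In that setting 5 replication-dependent probes fell and 1 rose, and 6 replacement probes fell and 1 rose. Without HS5 array 2, 6 replication-dependent probes fell. HIST1H4C fell 1.94-fold (log2 difference -0.96, SE 0.09, adjusted p = 2.52e-06), HIST1H4K 2.25-fold (adjusted p = 2.47e-05) and HIST1H2BH at least 1.97-fold (adjusted p = 0.000353). HIST1H4B was the 1 probe that rose, at least 1.2-fold (adjusted p = 0.000669). Among the replacement genes H1F0 fell 2.68-fold (log2 difference -1.42, SE 0.17, adjusted p = 1.47e-05) and H2AFZ rose 1.52-fold (log2 difference 0.60, SE 0.09, adjusted p = 0.000109). Each comparison with untreated cells shares those 3 arrays with the others.

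By position, 48 of the replication-dependent genes matched to 1 RefSeq gene lie on chromosome 6, of which 10 had kept probes. On chromosome 1 lie 10, of which 3 had kept probes. HIST1H2BC, HIST1H2BE, HIST1H2BF, HIST1H2BG and HIST1H2BI had no such match and were not placed. Along chromosome 6, HIST1H1C and HIST1H4C are separated by 1 gene that is not a histone gene, and with HS they had opposite calls, a fall of 0.99 for HIST1H1C and a rise of 0.44 for HIST1H4C on the log2 scale. HIST1H2AC and HIST1H2BD, a little further along, both fell. HIST1H2BJ and HIST1H2BK, near neighbours in the next stretch, differed in that HIST1H2BJ was not called (log2 difference 0.08, SE 0.16) while both HIST1H2BK probes fell.

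**Figure D5:**
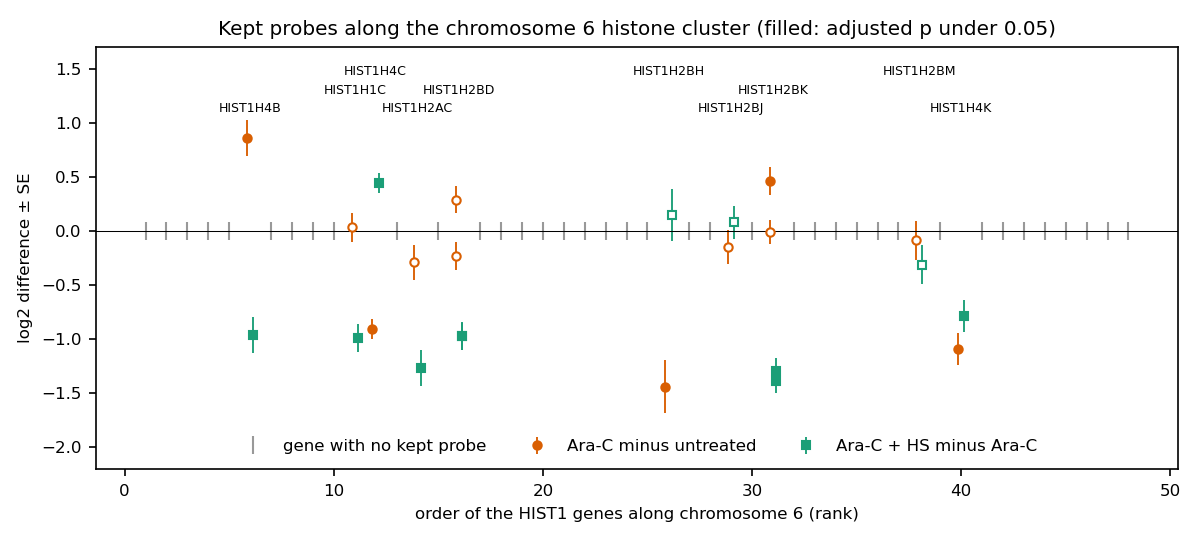
Log2 difference with its standard error for kept probes of the HIST1 genes, by rank order of the 48 matched HIST1 genes along chromosome 6. Orange is Ara-C minus untreated and green is Ara-C with HS minus Ara-C. A grey tick marks each matched gene without a kept probe. Green points are below 0 along the whole order except at HIST1H4C, HIST1H2BH and HIST1H2BJ.

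Genes that act on histone mRNA or on new histone proteins were taken from lists of genes with those known roles. Of 27 listed genes of histone mRNA transcription and 3′ end processing, 22 were tested, and 3 rose and 5 fell with Ara-C. When HS was added, 2 rose and 5 fell, and with HS5 none was called, where 49.9%, 39.1% and 0.723% of all kept probes were called. SLBP, the stem-loop binding protein, had means of 11.52 ± 0.02 in untreated cells and 12.18 ± 0.17 with Ara-C (SD, n = 3) and so rose (log2 difference 0.66, SE 0.11, adjusted p = 0.000208) and fell by 0.40 when HS was added (SE 0.11, adjusted p = 0.00937). NCBP2, a subunit of the nuclear cap-binding complex, fell by 0.94 on the log2 scale with Ara-C (SE 0.10, adjusted p = 8.24e-06), as did the cleavage factor genes CPSF4 by 0.65 (adjusted p = 4.97e-05) and CSTF2T by 0.68 (adjusted p = 0.000462). CPSF4 rose by 0.41 with HS (adjusted p = 0.00233, and 0.105 with median scaling). NPAT, the coactivator of histone gene transcription at cyclin E/CDK2 sites, was chosen for its role after its values were known and had a log2 difference of 0.22 with Ara-C (SE 0.14, adjusted p = 0.204) and of -0.01 with HS.

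Of 36 listed histone chaperones, importers and acetylases, 27 were tested, and 5 rose and 7 fell with Ara-C, while 2 rose and 7 fell when HS was added, again beside 49.9% and 39.1% of all probes called. ASF1B, a chaperone of new H3 and H4 in proliferating cells, rose 2.80-fold with Ara-C (log2 difference 1.48, SE 0.11, adjusted p = 2.39e-07) and fell by 0.48 with HS (adjusted p = 0.0035). CHAF1B, a subunit of the assembly factor CAF-1, rose by 0.71 with Ara-C (adjusted p = 5.66e-05). With HS it was lower than with Ara-C alone by 0.68 (adjusted p = 0.000138). NASP, which holds soluble H3 and H4, had a log2 difference of 0.01 with Ara-C and fell by 0.58 with HS (adjusted p = 0.000191). IPO4, an importer of H3 and H4, fell by 0.96 with Ara-C (adjusted p = 2.65e-05) and had a log2 difference of 0.05 with HS. With HS5 none of these 27 was called.

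A list of the cyclin E and A kinases and other S phase genes, E2F2 and CDC6 among them, held 12 genes, of which 11 were tested. With Ara-C, 8 rose and none fell, where 23.7% of all probes were called higher and 26.2% lower. With HS none rose and 5 fell, where 19.9% were called higher and 19.2% lower. CCNE2, for cyclin E2, rose 7.45-fold with Ara-C (log2 difference 2.898, SE 0.09, adjusted p = 3.59e-10) and fell by 0.79 with HS (SE 0.09, adjusted p = 3.42e-05). CCNE1 rose by 1.64, E2F2 by 1.49 and CDC6 by 0.90 on the log2 scale with Ara-C, and they fell by 0.80, 0.46 and 0.61 with HS. None of the 11 was called with HS5.

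Levels of cell type markers also differed between the groups. For the labelled cell type, the 10 tested B-lineage markers summed, on the linear scale, to 6910 to 7350 in untreated cells, 4270 to 4540 with Ara-C, 6950 to 7160 with HS and 3290 to 3780 with HS5. Of the other cell types, the 9 granulocyte precursor markers summed to 41600 to 45500 with Ara-C, 47600 to 50400 with HS and 38800 to 41700 with HS5. Such sums follow the brightest markers, and the single markers were split. With HS, 5 were higher and 2 lower than with Ara-C alone, and 5 were higher and 4 lower than in untreated cells. With HS5, 3 were higher and 4 lower than with HS. Of all probes, 39.1%, 42.8% and 40.8% were called in these comparisons. Of 15 stromal fibroblast markers 5 were tested, and they summed to 678 to 756 in untreated cells, 1950 to 2040 with Ara-C, 1890 to 1950 with HS and 1730 to 1990 with HS5. The tested ones were COL5A1, PDGFRB, SPARC, TAGLN and ACTA2. Of them 3 rose and none fell with Ara-C alone, and 2 rose and 1 fell when HS was added. Against untreated cells, 4 were higher and none lower with HS, and 3 were higher and 1 lower with HS5. Of all probes, 49.9%, 39.1%, 42.8% and 54.2% were called in these comparisons. The other 10, COL1A1, COL1A2, COL3A1, DCN, LUM and THY1 among them, were detected on no array of any group, those with stroma included. The part of differences in cell makeup, stromal RNA included, in the histone results was not tested. Fewer cells of a type and less RNA per cell cannot be told apart in these samples.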

How the data were processed

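Per the file headers, the deposited scanner tables hold, for each of 48800 probes on each of the 12 arrays, a bead signal as an intensity and a detection p-value set against the array's negative controls. The table of log2 values deposited by the authors equalled the log2 of those signals after quantile normalization without background correction, within 0.000167. Per the submitters' processing notes R 2.9.2 was used, and other steps are not given in the sources used here. Symbols are those the scanner tables give.

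Background correction and normalization used neqc (limma 3.58.1, R 4.3.3): normexp, whose control mean and variance came from the detection p-values, an offset of 16, quantile normalization and log2. Probes with a detection p under 0.01 on at least 3 arrays were kept (14939, of which 449 had no symbol). One limma model (lmFit and eBayes, 4 group means, 8 residual degrees of freedom) was fitted to all of them, with 6 contrasts, 2-sided, and Benjamini-Hochberg adjustment over all kept probes of a contrast at 0.05. Errors of log2 differences are the model's standard errors, and the number of arrays limits the precision. Where a probe was detected on no array of a group, a fold is a lower bound against the lowest level of any detected probe on each array, and none is given where both groups were undetected. In simulated log2 levels of 14939 probes with normal noise, 100 probes were changed 1.5-fold and 100 were changed 2-fold in 1 group. There the test recovered 49 to 61% of 1.5-fold and 82 to 92% of 2-fold changes, and 3.52 to 6.99% of its calls were false. Normalization and the filter were not simulated, and most real comparisons called far more probes, so these rates need not hold for them.

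The members and gene lists were chosen with earlier results of these data known. Values on all arrays are given for up to 12 replication-dependent and 10 replacement probes called in at least 1 of the comparisons of Ara-C with untreated cells and of HS and HS5 with Ara-C, by the largest absolute log2 difference, and for up to 4 genes per list by the smallest adjusted p the log2 differences are given. Further probes are named to account for every kept member. The replicate numbers in the labels did not pair the arrays: deviations from the group means of arrays with the same number correlated at -0.0413 to 0.031 across probes. Alternatives were no background correction, median scaling, other filters, 1 probe per gene, other settings of limma, a replicate block, and leaving out each array.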

Additional observations from a re-analysis of the deposited data

Results flagged for a closer look

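For 20 of the 30 kept histone probes the change from Ara-C alone differed between the stromal cells, by the test of HS5 minus HS itself (limma, adjusted p under 0.05, where 40.8% of all probes were called). The difference is that of the HS5 effect minus the HS effect on the log2 scale. For the H2B probes it was 0.97 (HIST1H2BK ILMN_1813314), 0.89 (HIST1H2BK ILMN_1796179), 0.87 (HIST1H2BD ILMN_1758623) and 0.64 (HIST1H2BD ILMN_1651496). H2A probes gave a fitted 0.86 (HIST1H2AC, detected on no HS array and so at least 1.34-fold higher with HS5) and 0.44 (HIST2H2AA3 ILMN_1659047), and the linker histone HIST1H1C gave 0.56. Of the H4 probes, HIST1H4B and HIST1H4K were detected on no HS array. Their fitted differences of 0.99 and 0.70 are not exact, and the bounds are at least 1.35-fold and at least 1.13-fold higher with HS5. The other H4 probes gave 0.52 (HIST2H4A, detected on 1 array of each group) and -0.50 (HIST1H4C), so HIST1H4C differed in the opposite direction from the other H4 probes.

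Among the replacement probes the difference was 0.78 for H2AFZ, 0.47, 0.36 and 0.31 for the H3F3A probes (ILMN_1656082, ILMN_1699015 and ILMN_2106331) and 0.71 for H2AFJ ILMN_1708728. It was -1.31 for H1F0, -0.60 for H2AFY ILMN_1746171 and -0.31 for H2AFY ILMN_2373495. For H2AFJ ILMN_2253065, detected on no HS5 array and on 2 HS arrays, the fitted difference was -0.48 and no fold can be given. The calls of HIST2H4A, HIST2H2AA3 ILMN_1659047, H2AFY ILMN_2373495, H2AFJ ILMN_2253065 and H3F3A ILMN_2106331 were lost when single arrays were left out, each for 4 or more of the 12 arrays (highest adjusted p = 0.206, 0.192, 0.176, 0.117 and 0.119).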

How the results depend on the processing

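Of the 3678 values of histone probes recomputed under alternatives, 147 lost their call, 33 gained one and none reversed a called direction. Direction could change only without background correction, with median scaling or without an array of a compared group. The other settings kept the same log2 differences, so the lack of a reversal there was fixed in advance. The count of called histone probes was 14 for Ara-C against untreated cells, 20 for HS against Ara-C, 0 for HS5 against Ara-C, 16 and 19 for HS and HS5 against untreated cells and 20 for HS5 against HS. Leaving out each array in turn gave 13 to 15, 17 to 20, 0 to 0, 14 to 17, 16 to 19 and 15 to 19. Requiring a fold of 1.5 left 7 for Ara-C against untreated cells, 11 for HS5 against untreated cells and 11 for HS5 against HS. Of the 21 probes detected on all 12 arrays, 13 were called for HS against Ara-C, 1 for HS5 against Ara-C, 12 for HS5 against untreated cells and 13 for HS5 against HS. With 1 probe per gene, 13 of 22 were called for HS5 against HS. For HS5 against Ara-C, 1 was called without background correction and 3 with trend and robust settings. The fit with the replicate block gave 14, 20, 0, 16, 18 and 19 called, and 3 of 12 arrays correlated best with an array of their own number.

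Median scaling without quantile normalization moved the median of all probes from -0.05 to 0.17 for Ara-C against untreated cells, with 5102 probes higher and 1680 lower in place of 3535 and 3919. The histone counts in that setting stand beside each comparison above. The 108 probes called over the whole array for HS5 against Ara-C became 236 without background correction, 286 with trend and robust settings, 71 without a filter, 65 from a fit of those groups alone and 67 with the block. It was 54, 30 and 39 without Ara-C array 1, 2 or 3, 44, 57 and 45 without HS5 array 1, 2 or 3, and 86 to 114 without an array of the other groups. The cause was not tested. With a fold of 1.5 the whole-array counts were 3854, 2539, 75, 2871, 4361 and 2776 in the order above. Where a probe was detected on no array of a group, as HIST1H4B was in untreated cells and with HS, the fold is only a bound.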
